A study of Homo sapiens with 15 samples.

Results

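Complex I (NADH:ubiquinone oxidoreductase) is the largest enzyme of the mitochondrial respiratory chain, and 34 of its nuclear-encoded subunits were followed here by ribosome profiling in HEK293 cells. The members were taken by name from the known subunits of the complex and not by any measured value, and all 34 were found among the 55773 gene names of the table. Complex I takes electrons from NADH in a peripheral arm that stands in the matrix and passes them along iron-sulfur clusters to ubiquinone. A membrane arm uses the energy released to pump protons. Within the peripheral arm the N module binds NADH and the Q module reaches ubiquinone. The proximal and distal parts of the membrane arm hold the proton channels, whose core subunits are encoded in mitochondrial DNA, wrapped in many small nuclear-encoded accessory subunits. Nuclear and mitochondrial subunits are made on different ribosomes and must come together in one assembly line.

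HEK293 is an established line derived from human embryonic kidney, and 15 libraries were made from it, 3 in each of 5 groups. The Flag/HA-ZC3H7A and Flag/HA-ZC3H7B groups were Flp-In T-REx 293 cells that expressed a tagged copy of ZC3H7A or ZC3H7B, which are CCCH-type zinc finger proteins that bind RNA, and the Flag/HA control carried the tag alone. These 3 groups share the genotype label Flag/HA overexpression and the doxycycline treatment (1 µg/mL for 24 h), and the labels call their samples independent replicates. The ZC3H7A/B-DD group carries the genotype label ZC3H7A-KO-shZC3H7B, and its control, Parental, the label Wild-type-shCTR. Both were kept in puromycin at 5 µg/mL until 2 passages before collection, and were lysed from frozen pellets with cycloheximide at 100 µg/mL. The 2 sets of groups also differ in lysis buffer, library kit and laboratory, so comparisons were made only with the control of the same set. The sources used here do not say whether a line is 1 clone, nor whether the ZC3H7A/B-DD and Parental samples came from separate cultures. In that set the p-values reflect the spread of these samples, which may be technical.

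Values are normalized counts, that is, footprint reads assigned to a gene divided by a size factor of the library. Libraries held 20777204 to 42680589 assigned reads. The tagged genes stood out in their own lines: ZC3H7A had 37858, 37598 and 38675 normalized counts in Flag/HA-ZC3H7A cells, against 6509, 6526 and 6607 in the Flag/HA control. ZC3H7B had 27538, 27182 and 28936 in Flag/HA-ZC3H7B cells, against 2230, 2137 and 2089 in the control. In the libraries labelled ZC3H7A/B-DD neither gene was lower than in Parental: ZC3H7A had 7116, 1890 and 5066 normalized counts against 1885, 1820 and 2311, and ZC3H7B had 3948, 2399 and 2969 against 2479, 2321 and 2609. Footprints do not show whether the protein was lost, and the labels are therefore used below only as names. Parental replicate 3 stood apart, with a mean absolute deviation of 0.233 (log2) from the median of its group for each gene. The other 5 libraries of that set had 0.0844 to 0.169. The HEK293 markers NEFL, NEFM, NES, VIM, KRT8 and KRT18 had reads in all 15 libraries. Their sum stood at 23949 to 27454 normalized counts in the overexpressing lines, against 19859 to 21036 in the control, and at 40177 to 45029 in ZC3H7A/B-DD, against 21031 to 30954 in Parental. VIM made up most of it, while KRT8 averaged 330 with ZC3H7A, 628 with ZC3H7B and 921 in the control, and 209 in ZC3H7A/B-DD against 1098 in Parental. Of the markers of differentiated kidney, LRP2 averaged 5587 normalized counts with ZC3H7A and 5096 with ZC3H7B, against 9389 in the control, and 5262 in ZC3H7A/B-DD against 5484 in Parental, while UMOD and AQP2 were at 0 in 9 and 8 of the 15 libraries. Summed fibroblast markers stood at 149 to 192 normalized counts in the 2 overexpressing lines and 104 to 132 in their control, and at 387 to 489 in ZC3H7A/B-DD and 571 to 754 in Parental. Summed blood markers stood at 250 to 449 in the overexpressing lines, against 607 to 799 in the control, and at 307 to 367 in ZC3H7A/B-DD, against 165 to 213 in Parental. The most abundant blood marker over the 15 libraries was HBB, at 110 to 786 normalized counts. The part of other cell types in the results below was not tested.

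Because the series asks about codon-dependent regulation, the coding sequence of each member was read from GENCODE release 29 (GRCh38) and its codons were classed by their last base. The percentage of codons that end in A or T, called AT3 here, ran over the 34 members between 8.82% in NDUFB7 and 64.9% in NDUFB3, with a median of 41.5%, against a median of 39.4% over 19470 genes. Codons 41 to 80, counted from the start codon, are shown for 4 members with different responses, in lower case with each third-position A or T in capitals. NDUFB5 was lower in both overexpressing lines, NDUFA10 and NDUFS6 were lower with ZC3H7A and did not pass the test with ZC3H7B, and NDUFB7 was higher in both.
NDUFB5: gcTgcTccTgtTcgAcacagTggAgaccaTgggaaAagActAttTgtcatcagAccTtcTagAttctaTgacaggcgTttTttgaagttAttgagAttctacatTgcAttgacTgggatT
NDUFA10: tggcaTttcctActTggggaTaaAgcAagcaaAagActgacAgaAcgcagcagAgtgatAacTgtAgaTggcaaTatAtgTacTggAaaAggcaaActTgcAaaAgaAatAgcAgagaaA
NDUFS6: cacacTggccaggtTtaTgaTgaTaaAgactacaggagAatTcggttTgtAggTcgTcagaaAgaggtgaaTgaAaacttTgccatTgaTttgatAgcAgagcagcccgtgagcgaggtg
NDUFB7: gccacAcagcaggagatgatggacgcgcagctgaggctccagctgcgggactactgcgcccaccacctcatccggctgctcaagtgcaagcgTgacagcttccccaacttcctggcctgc
Of these 40 codons, 25 end in A or T in NDUFB5, 29 in NDUFA10, 20 in NDUFS6 and 2 in NDUFB7. Over the whole coding sequence, here the longest of each gene, AT3 was 60.6% in NDUFB5, 40.9% in NDUFA10, 36.8% in NDUFS6 and 8.82% in NDUFB7. In the form annotated as principal it was 40.1% in NDUFA10 and 32.5% in NDUFS6, and the same in NDUFB5 and NDUFB7. In GRCh38 the genes span chr3:179604690-179627647 on the plus strand (NDUFB5), chr2:239892450-240025402 on the minus strand (NDUFA10), chr5:1801400-1816605 on the plus strand (NDUFS6) and chr19:14566078-14572062 on the minus strand (NDUFB7).

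Footprint density, the normalized count per kilobase of coding sequence, differed widely between members that each enter the complex in 1 copy. In the Flag/HA control NDUFA1, a small membrane subunit, had the highest density at 52587 ± 600 (SD, n = 3). NDUFS5, a small intermembrane-space subunit of the proximal arm, had 52252 ± 1732 and overlapped it. The median over members was 6238, and 16 of 34 lay within 2-fold of it. In Parental the order at the top was alike, with NDUFA1 at 41660 ± 4949, NDUFS5 at 40510 ± 4645 and NDUFB11 at 28582 ± 814, a median of 7819, and 23 of 34 members within 2-fold of it. Between neighbours in the order, the 3 libraries of the higher gene lay wholly above those of the lower gene in 21 of 33 pairs in the Flag/HA control and in 8 of 33 in Parental. Density depends on the coding sequence chosen, here the longest: that of NDUFV3 has 472 codons, but its form annotated as principal has 107. NDUFA1 has the shortest coding sequence of the members, at 69 codons. The sources used here do not say whether reads outside the coding sequence were counted. Density is therefore no direct measure of how much of each subunit is made.

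The lowest densities belonged to members whose annotation overlaps another gene. At least 25% of the coding bases of NDUFV2, NDUFC2, NDUFA9, NDUFB8, NDUFA13 and NDUFA11 lie in exons of another gene on the same strand, with shares of 91.7%, 86.8%, 85.1%, 83.9%, 70% and 45.8%. Of these 6 genes, 5 are among the 6 lowest densities in the Flag/HA control and 4 in Parental. NDUFA13 stood at 43.8 ± 1.34 per coding kilobase and NDUFV2 at 124 ± 39.2 in the control, although both are subunits of the working complex. Counting could have split or left out reads of these 6 genes, and whether it did was not tested, so their levels and changes are uncertain. NDUFA11 had 489 ± 67.7 per coding kilobase in the Flag/HA control and 5553 ± 320 in Parental, 2 values from differently made libraries for which no test is given. Reads from the other strand could also add to NDUFS7 (50.7% of coding bases overlapped), NDUFB2 (24.1%, NDUFB2-AS1), NDUFB9 (18.8%, TATDN1) and NDUFA2 (18.2%, IK), since the sources used here do not say whether counting used the strand. Genes that GENCODE classes as processed pseudogenes hold 53.8% of the 28-base coding stretches of NDUFV2, 52.2% of those of NDUFA5, 39.3% for NDUFB3, 38.3% for NDUFB4 and 28.6% for NDUFS5, so reads of these members may have been shared out or dropped in counting, which was not tested.

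**Figure D1:**
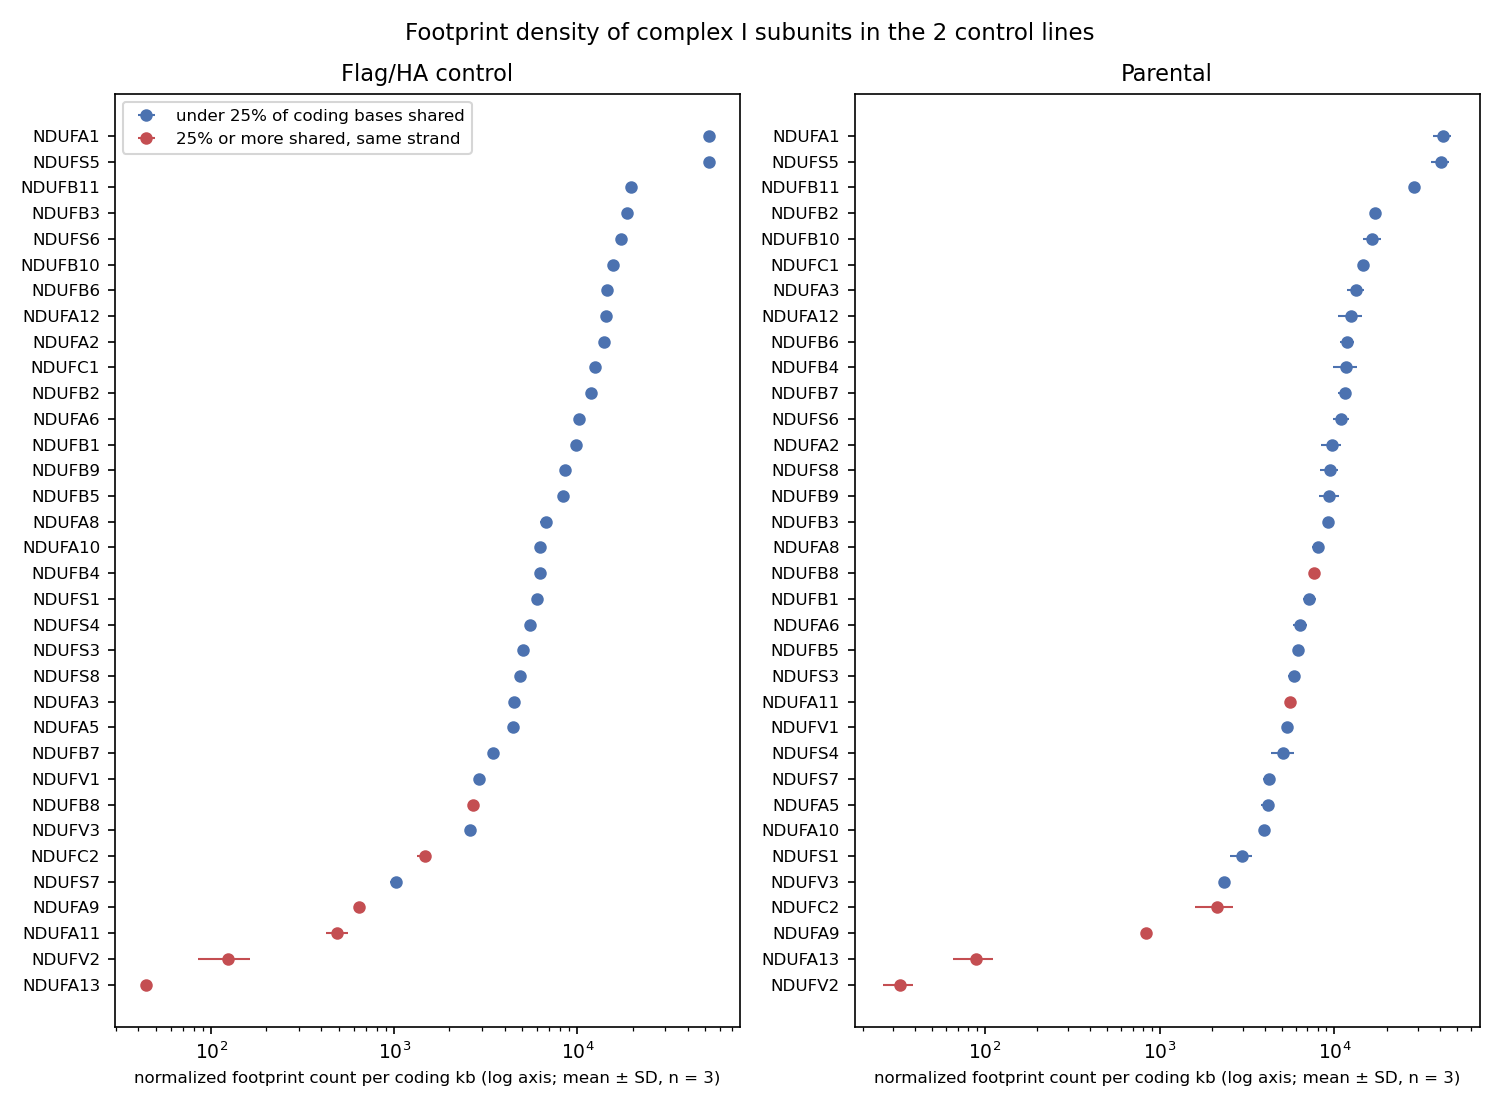
Footprint density of the 34 members in the Flag/HA control (left panel) and Parental (right panel), as normalized counts per coding kilobase on a log axis, mean ± SD of 3 libraries. Red points mark the 6 members of whose coding bases 25% or more lie in another gene on the same strand, and most of them lie at the low end, with NDUFA13 at 43.8 in the control and NDUFV2 at 32.5 in Parental.

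In Flag/HA-ZC3H7A cells 15 of the 34 members fell and 8 rose, and the rest did not pass the test (limma, Benjamini-Hochberg adjusted over 15599 genes, threshold 0.05). NDUFS6, an accessory subunit with a zinc site at the join of the N and Q modules, fell the most and stood at 0.524 times its control level. NDUFA10, NDUFB5, NDUFV3 and NDUFA12 also fell by over 0.6 on the log2 scale. Among all genes tested 57.5% passed, 29.2% as higher and 28.2% as lower, so the 67.6% of members that passed is near the background. The share of members that were lower (44.1%) was above that of all genes and the share that were higher (23.5%) was below it. The median log2 change was -0.08 over members and 0.02 over all genes. All 3 libraries lay above or all below the 3 controls for 24 members (70.6%), against 63.9% of all genes. A log2 change here is a difference of log2(value + 1), and the added 1 makes it too small for genes with low values. Footprints alone do not separate less mRNA from less translation of it. The parts of the complex described next hold 5 to 11 members each, and differences between the parts were not tested.

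In the N module 5 of 9 members fell with ZC3H7A (55.6%, against 28.2% of all genes) and 1 rose (11.1%, against 29.2%). NDUFS6 had 4527, 4741 and 4807 normalized counts in Flag/HA-ZC3H7A cells, against 9027, 8832 and 8976 in the Flag/HA control. All 3 libraries lay far below all 3 controls, a log2 change of -0.93 ± 0.05 (SE; adjusted p = 4.89e-13). NDUFV3, an accessory subunit of the N module, had 2338, 2412 and 2315 against 3725, 3608 and 3715, a log2 change of -0.65 ± 0.05 (adjusted p = 3.7e-11). NDUFA12, an accessory subunit that sits next to NDUFS6 in the assembled arm, had 4052, 4126 and 3898 against 6564, 6102 and 6180. The groups did not overlap, and the log2 change was -0.64 ± 0.05 (adjusted p = 3.85e-11). The core subunits NDUFS1, the largest subunit of the complex and a carrier of iron-sulfur clusters, and NDUFV1, which binds FMN and NADH, changed less. NDUFS1 had 10736, 10391 and 10539 normalized counts against 13527, 13096 and 13462, a log2 change of -0.34 ± 0.05 (adjusted p = 1.13e-06). NDUFV1 had 3554, 3404 and 3091 against 4174, 3874 and 4035, a log2 change of -0.27 ± 0.05 (adjusted p = 9.31e-05). Both genes had all libraries below the controls. NDUFV2, a core iron-sulfur subunit, was the member that rose, with 157, 145 and 243 normalized counts against 60.8, 103 and 118, but it is 1 of the 6 overlapped genes and holds few reads. NDUFS4, NDUFA2 and NDUFA6 did not pass, with log2 changes between -0.06 and -0.08.

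In the Q module and its interface 3 of 5 members fell with ZC3H7A (60%, against 28.2% of all genes) and 1 rose (20%, against 29.2%). NDUFS7 and NDUFS8 hold the clusters that lead to ubiquinone. NDUFS7 had 589, 641 and 565 normalized counts in Flag/HA-ZC3H7A cells, against 786, 698 and 699 in the control, a log2 change of -0.28 ± 0.08 (adjusted p = 0.00382). NDUFS8 had 2811, 2808 and 2640 against 3186, 3118 and 2923, a log2 change of -0.16 ± 0.05 (adjusted p = 0.0108), and its call was lost without Flag/HA-ZC3H7A replicate 3 or control replicate 1. Neither gene's groups overlapped. NDUFA9, an accessory subunit near the ubiquinone site and 1 of the 6 overlapped genes, had a log2 change of -0.20 ± 0.08 (adjusted p = 0.0269), and its call was lost without Flag/HA-ZC3H7A replicate 1 or control replicate 1 or 3. NDUFA5, an accessory subunit on the surface of the arm, rose, with 1772, 1984 and 1753 normalized counts against 1613, 1554 and 1546 (log2 change 0.22 ± 0.06, adjusted p = 0.00258). NDUFS3, a core subunit without a cluster, had 4030, 4094 and 3941 against 4124, 3857 and 4049, and the groups overlapped (adjusted p = 0.939).

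In the proximal membrane arm 4 of 9 members rose with ZC3H7A (44.4%, against 29.2% of all genes) and 1 fell (11.1%, against 28.2%). NDUFA10, an accessory subunit with a nucleoside kinase fold, was the one that fell. It had 4885, 4964 and 4796 normalized counts in Flag/HA-ZC3H7A cells, against 8275, 7822 and 8049 in the control, a log2 change of -0.72 ± 0.04 (adjusted p = 1.3e-12). NDUFA3, a short single-pass subunit, rose to 1332, 1604 and 1466 against 1167, 1159 and 1131 (log2 change 0.34 ± 0.06). NDUFS5 rose to 19808, 20779 and 20173 against 17270, 16173 and 16876 (log2 change 0.27 ± 0.05). NDUFC1, another single-pass subunit, rose with a log2 change of 0.19 ± 0.05. These 3 genes had all libraries above the controls. NDUFA13, also known as GRIM-19, had 45.5, 37.7 and 53.5 normalized counts against 20.2, 19.1 and 20.1, a log2 change of 1.15 ± 0.33 at very low counts. NDUFA1, NDUFA8, NDUFA11 and NDUFC2 did not pass.

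In the distal membrane arm 6 of 11 members fell with ZC3H7A (54.5%, against 28.2% of all genes) and 2 rose (18.2%, against 29.2%). NDUFB5, a single-pass accessory subunit, had 2916, 3026 and 2907 normalized counts in Flag/HA-ZC3H7A cells, against 4824, 4800 and 4587 in the control, a log2 change of -0.68 ± 0.05 (adjusted p = 4e-11). NDUFB9, an LYR-motif subunit, had 3260, 3519 and 3384 against 4858, 4496 and 4507 (log2 change -0.45 ± 0.06). NDUFB4, NDUFB10, NDUFB3 and NDUFB11 fell with log2 changes between -0.18 and -0.32. All 6 genes had their 3 libraries below the controls. NDUFB2 and NDUFB7 went the other way. NDUFB7, a subunit with paired cysteine motifs that faces the intermembrane space, had 1880, 1920 and 1737 against 1411, 1488 and 1383, a log2 change of 0.37 ± 0.06 (adjusted p = 5.19e-06). NDUFB2 had 5107, 5070 and 4578 against 3758, 3786 and 3837, also a log2 change of 0.37 ± 0.06 (adjusted p = 1e-05). NDUFB1, NDUFB6 and NDUFB8 did not pass, with log2 changes between -0.07 and 0.08.

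**Figure D2:**
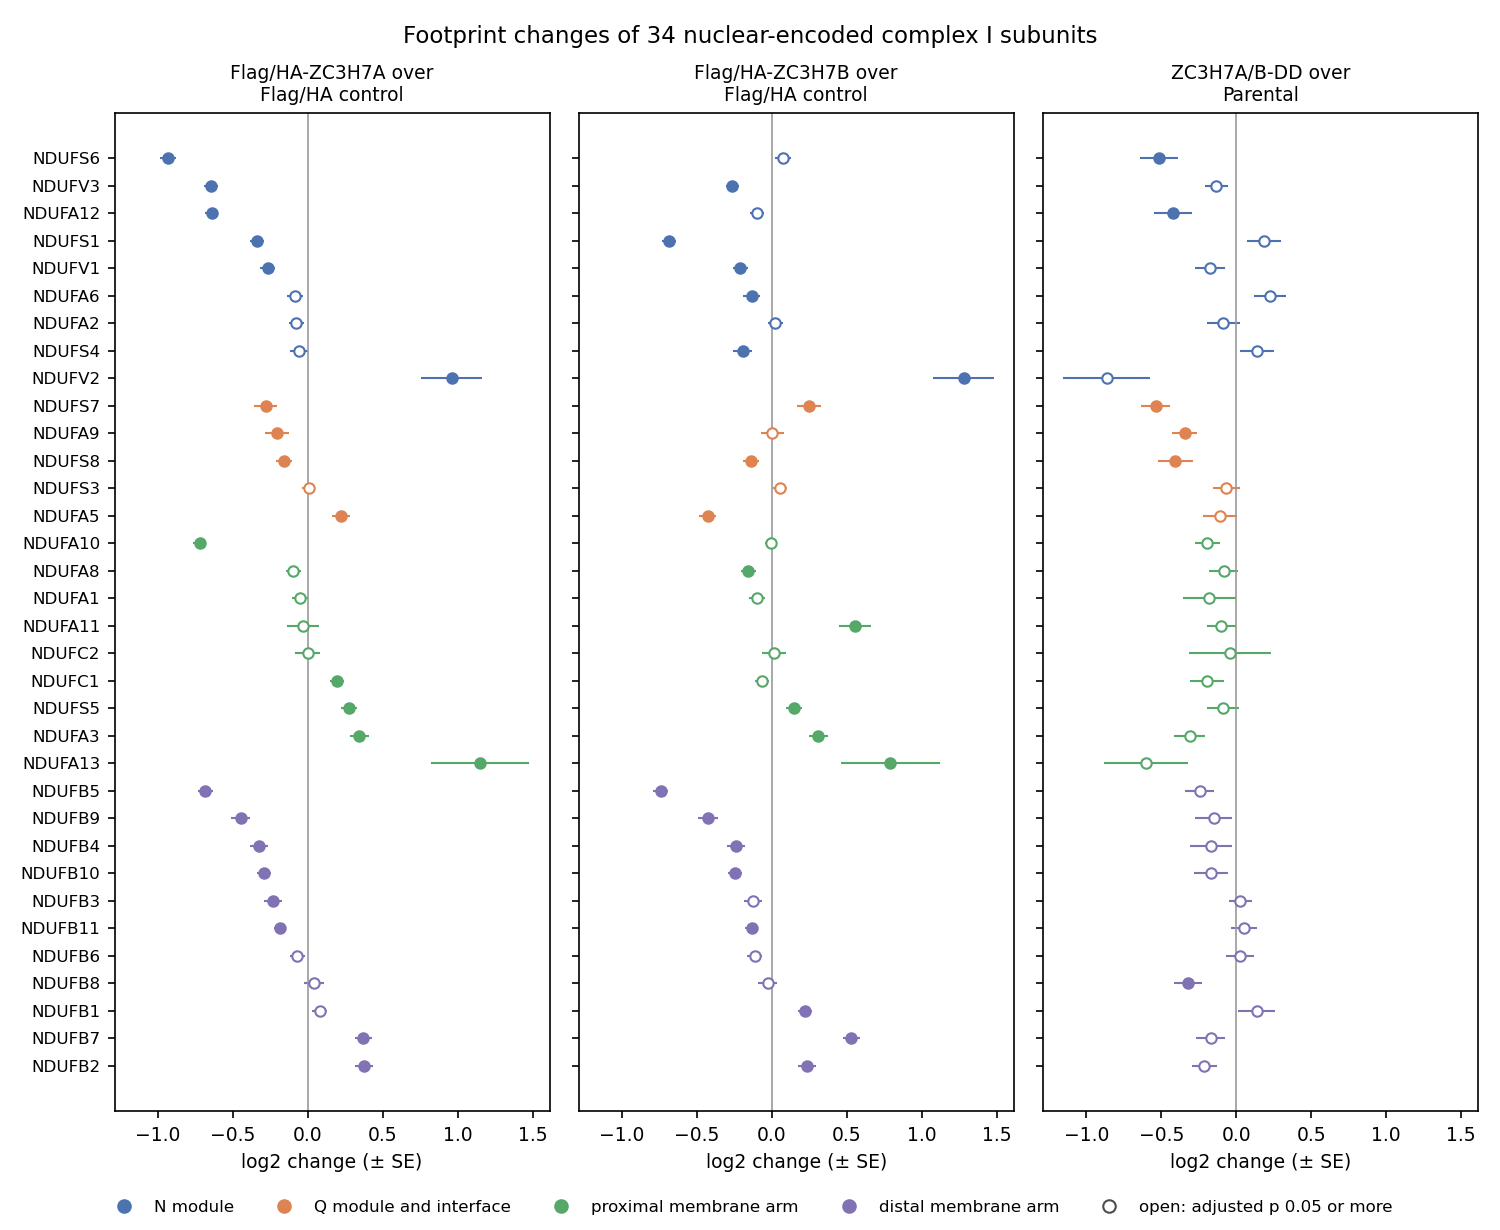
Log2 change ± SE of each member in Flag/HA-ZC3H7A cells and Flag/HA-ZC3H7B cells over the Flag/HA control and in ZC3H7A/B-DD cells over Parental, ordered by part of the complex and, within it, by the change with ZC3H7A. Filled points passed the test (adjusted p under 0.05), and the lowest point is NDUFS6 with ZC3H7A at -0.93.

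In Flag/HA-ZC3H7B cells 13 of the 34 members fell and 9 rose. NDUFB5 and the core subunit NDUFS1 fell the most, and NDUFV2, NDUFA13, NDUFA11 and NDUFB7 rose the most. Among all genes tested 54.3% passed, 28.9% as higher and 25.4% as lower, against 64.7% of members, 26.5% as higher and 38.2% as lower. The groups did not overlap for 22 members (64.7%), against 61.1% of all genes. The median log2 change was -0.08 over members and 0.04 over all genes. The counts of lower members rest on the scaling: under quantile scaling 7 members were lower and the median of members was -0.00127. Both overexpressing lines are set against the same 3 control libraries, so the 2 comparisons are not independent.

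NDUFB5 had 2933, 2928 and 2640 normalized counts in Flag/HA-ZC3H7B cells, against 4824, 4800 and 4587 in the control, a log2 change of -0.74 ± 0.05 (adjusted p = 9.87e-12). NDUFS1 had 8796, 8452 and 7737 against 13527, 13096 and 13462, a log2 change of -0.68 ± 0.05 (adjusted p = 1.66e-11). Both genes lay wholly below the controls. NDUFA5 fell here, with 1244, 1136 and 1121 against 1613, 1554 and 1546 (log2 change -0.43 ± 0.06, adjusted p = 1.56e-06), and NDUFB9 had 3856, 3526 and 2988 against 4858, 4496 and 4507 (log2 change -0.43 ± 0.06). The other members that fell were NDUFV1, NDUFV3, NDUFS4, NDUFA6, NDUFS8, NDUFA8, NDUFB4, NDUFB10 and NDUFB11, with log2 changes between -0.14 and -0.26. Of these, NDUFS4, a subunit known from inherited Leigh syndrome, NDUFA6, an LYR protein, and NDUFA8, an intermembrane-space subunit, did not pass with ZC3H7A. The core subunits NDUFV1, with 3550, 3485 and 3396 normalized counts in Flag/HA-ZC3H7B cells against 4174, 3874 and 4035 in the control, and NDUFS8, with 2886, 2871 and 2615 against 3186, 3118 and 2923, lay wholly below it. NDUFS3 had 4157, 4366 and 3978 against 4124, 3857 and 4049, with overlapping groups (adjusted p = 0.334). Calls on NDUFA6, NDUFA8, NDUFS4, NDUFS8, NDUFB11 and NDUFV1 were lost under quantile scaling, and those on NDUFA6, NDUFA8, NDUFS4 and NDUFS8 also without control replicate 1.

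NDUFB7 had 2041, 1964 and 2180 normalized counts in Flag/HA-ZC3H7B cells, against 1411, 1488 and 1383 in the control, a log2 change of 0.53 ± 0.06 (adjusted p = 2.82e-08). NDUFA3 had 1434, 1446 and 1407 against 1167, 1159 and 1131 (log2 change 0.31 ± 0.06). NDUFS7 had 780, 939 and 871 against 786, 698 and 699, and although it passed (log2 change 0.24 ± 0.08, adjusted p = 0.0111) its groups overlapped. That call was lost without Flag/HA-ZC3H7B replicate 2, and without control replicate 2 or 3. NDUFB2 and NDUFB1 rose with log2 changes of 0.23 and 0.22. NDUFS5 also passed, with 19537, 19594 and 16687 against 17270, 16173 and 16876, but its groups overlapped (log2 change 0.15 ± 0.05, adjusted p = 0.0237) and the call was lost in 5 of 17 alternatives, 4 of them with a single library left out. Among the overlapped genes, NDUFA11, a membrane subunit of the proximal arm, had 544, 500 and 434 against 384, 291 and 333 (log2 change 0.56 ± 0.11, adjusted p = 0.000123). NDUFV2 had 225, 197 and 242 against 60.8, 103 and 118 (log2 change 1.28 ± 0.20). NDUFA13 had 19.8, 34.9 and 61.6 against 20.2, 19.1 and 20.1, with overlapping groups (adjusted p = 0.0459), and its call was lost under 10 of the 16 alternatives that tested it.

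A direct test of ZC3H7A over ZC3H7B cells, which uses no control library in the difference, found 9 members lower and 3 higher, 35.3% of 34, against 36.6% of all genes (18.4% higher and 18.2% lower). The groups did not overlap for 12 members (35.3%), against 43.7% of all genes. NDUFS6 differed the most, with 4527, 4741 and 4807 normalized counts in Flag/HA-ZC3H7A cells, against 9646, 10134 and 8545 in Flag/HA-ZC3H7B cells, a log2 change of -1.01 ± 0.05 (adjusted p = 2.97e-13). NDUFA10 had 4885, 4964 and 4796 against 8144, 8109 and 7781, a log2 change of -0.71 ± 0.04 (adjusted p = 3.64e-12). NDUFA12 had 4052, 4126 and 3898 against 5836, 6109 and 5660, a log2 change of -0.54 ± 0.05 (adjusted p = 1.2e-09). These 3 genes were lower in every ZC3H7A library than in every ZC3H7B library, and against the control none of the 3 passed with ZC3H7B. There NDUFA12 (log2 change -0.10) was called with TMM scaling, edgeR and DESeq2 and without Flag/HA-ZC3H7B replicate 2. NDUFS6 (0.07) was called higher under quantile scaling, with sample weights and without Flag/HA-ZC3H7B replicate 3, and NDUFA10 was called higher under quantile scaling. NDUFA5 was higher with ZC3H7A than with ZC3H7B, a log2 change of 0.65 ± 0.06 (adjusted p = 4.27e-09), and NDUFS1 likewise, at 0.34 ± 0.05 (adjusted p = 2.08e-06).

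**Figure D3:**
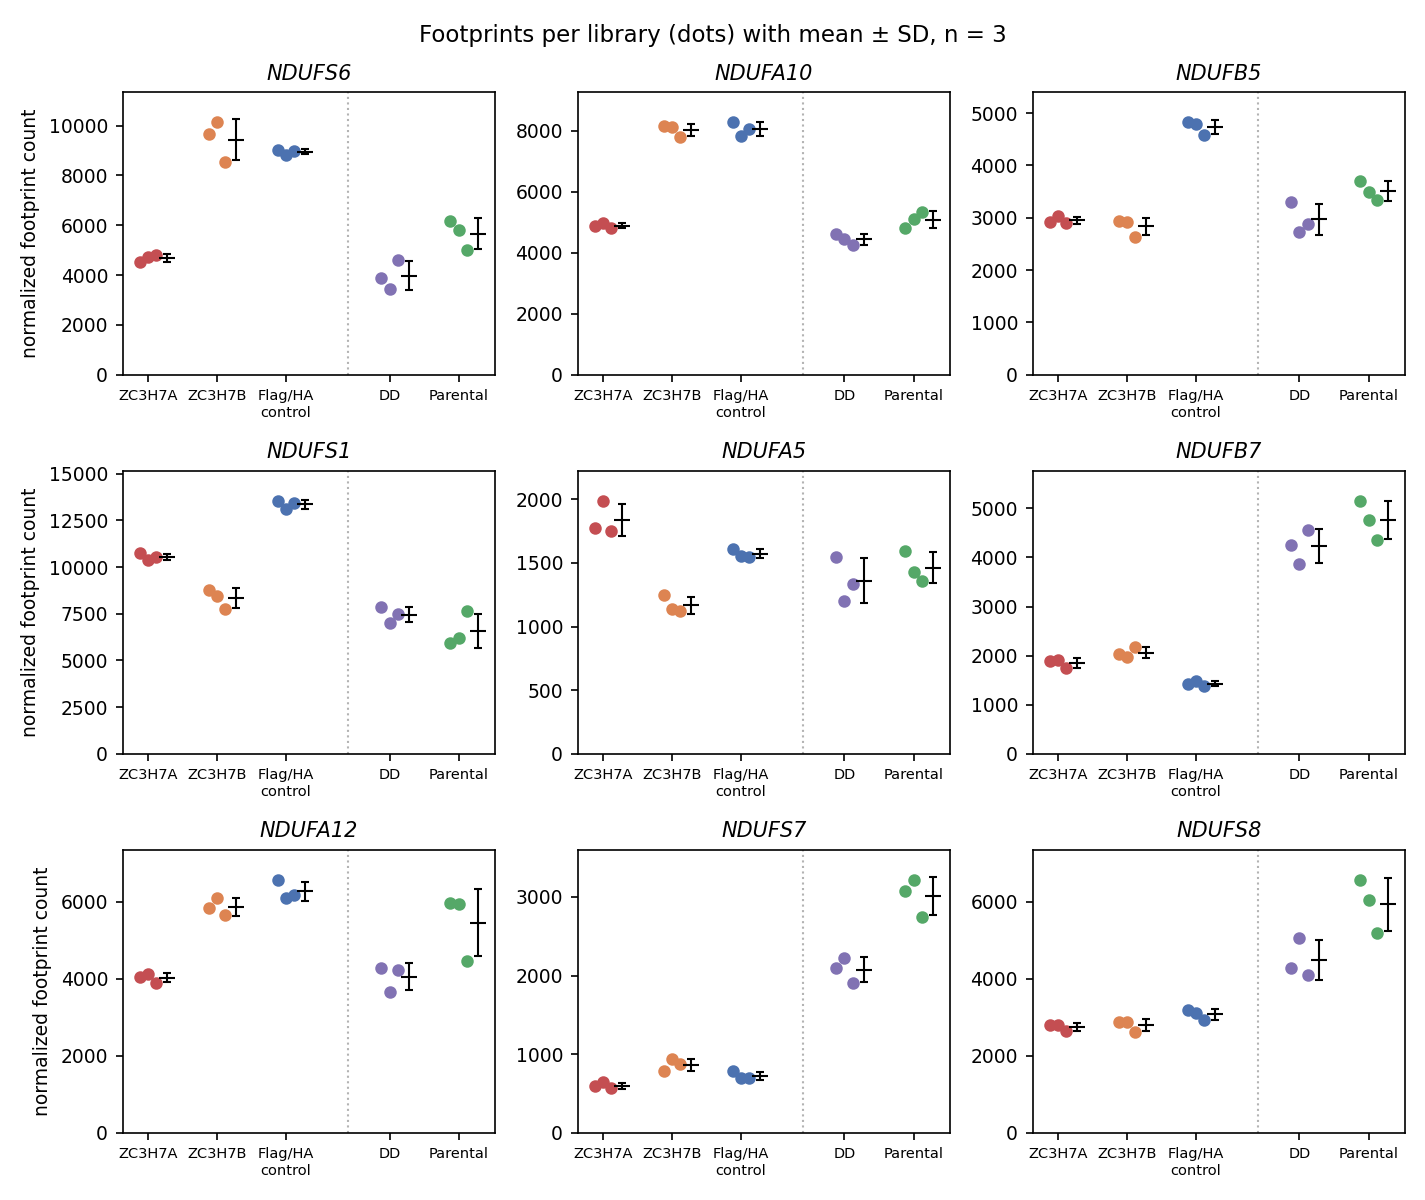
Normalized footprint counts per library of 9 members in Flag/HA-ZC3H7A, Flag/HA-ZC3H7B and Flag/HA control cells and, right of the dotted line, in ZC3H7A/B-DD (DD) and Parental cells, with the mean ± SD of 3 libraries beside the dots. NDUFS6, NDUFA10 and NDUFA12 are low in the 3 ZC3H7A libraries alone among the Flag/HA groups, while NDUFB5 is low in both overexpressing lines.

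In the libraries labelled ZC3H7A/B-DD 6 of 34 members fell and 0 rose (limma, adjusted over 17092 genes). At an unadjusted p under 0.05 the counts were 11 and 0, and edgeR and DESeq2 on the recovered reads also called 0 members higher. The 6 were NDUFS7, NDUFS6, NDUFA12, NDUFS8, NDUFA9 and NDUFB8. Among all genes 24.5% passed, 11% as higher and 13.5% as lower, against 17.6% of members. The groups did not overlap for 12 members (35.3%), all lower in ZC3H7A/B-DD, against 40.8% of all genes in either direction. The log2 change was negative for 27 of 34 members and for 8125 of 17092 genes, and its median was -0.17 over members and 0.02 over all genes. The summed share of reads on the members was 0.416% to 0.454% in ZC3H7A/B-DD libraries, against 0.430% to 0.517% in Parental, where replicate 3 held the lowest share and lay inside the other range.

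NDUFS7 was the member called in all 17 alternatives run for this comparison. It had 2094, 2223 and 1909 normalized counts in ZC3H7A/B-DD libraries, against 3072, 3212 and 2745 in Parental, a log2 change of -0.54 ± 0.10 (adjusted p = 0.00446). Its groups did not overlap. NDUFS6 had 3873, 3459 and 4602 against 6191, 5813 and 5006, a log2 change of -0.52 ± 0.12 (adjusted p = 0.0169). NDUFA12 had 4280, 3650 and 4239 against 5969, 5956 and 4473, a log2 change of -0.42 ± 0.13 (adjusted p = 0.0413). NDUFS8 had 4288, 5066 and 4083 against 6554, 6053 and 5193, a log2 change of -0.41 ± 0.12 (adjusted p = 0.0346). Within each of these 3 genes all ZC3H7A/B-DD libraries lay below all Parental libraries, and Parental replicate 3 was the nearest to them. NDUFA9 had a log2 change of -0.34 ± 0.09 (adjusted p = 0.0189) and NDUFB8 of -0.32 ± 0.09 (adjusted p = 0.0366), both among the overlapped genes.

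The number of lower members in ZC3H7A/B-DD libraries depended on single libraries. It was 10 without Parental replicate 3, with NDUFS1 then higher, 3 without ZC3H7A/B-DD replicate 1 or 2, 2 without ZC3H7A/B-DD replicate 3, and 1 without Parental replicate 1 or 2. The calls on NDUFS6, NDUFS8 and NDUFA12 were each lost in at least 4 of these 6 fits, although their log2 changes stayed between -0.33 and -0.63. NDUFS1 had 7855, 7022 and 7492 normalized counts in ZC3H7A/B-DD libraries, against 5911, 6203 and 7645 in Parental, and the groups overlapped through Parental replicate 3 (log2 change 0.19 ± 0.11, adjusted p = 0.256). NDUFV1 had 5844, 6833 and 7106 against 7065, 7566 and 7652, and its groups overlapped (log2 change -0.18, adjusted p = 0.226). NDUFS3 had 4353, 4280 and 4704 against 4831, 4862 and 4274, also with overlapping groups (log2 change -0.07, adjusted p = 0.628). NDUFA10 and NDUFB5, which were among the most reduced with ZC3H7A, had log2 changes of -0.19 ± 0.08 and -0.24 ± 0.10 and did not pass, although neither overlapped with Parental. NDUFV2 had 13.2, 14.2 and 11.5 normalized counts against 27.5, 19.1 and 27.4 and did not pass (adjusted p = 0.0589).

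The 7 subunits encoded in mitochondrial DNA form the core of the membrane arm and are translated inside the organelle. With ZC3H7B all 7 rose, and with ZC3H7A 5 rose and MT-ND6 fell. These are 100% and 85.7% of the list, against 54.3% and 57.5% of all genes, of which 28.9% and 29.2% were higher. MT-ND1 had 17214, 18005 and 21941 normalized counts in Flag/HA-ZC3H7B cells, against 10600, 12827 and 12528 in the control, a log2 change of 0.67 ± 0.07 (adjusted p = 4.92e-08). With ZC3H7A it had 15846, 14580 and 16326 against the same controls, a log2 change of 0.38 ± 0.07 (adjusted p = 9.54e-05). MT-ND4L rose with ZC3H7B by a log2 change of 0.51 and with ZC3H7A by 0.24. MT-ND6, the one subunit encoded on the light strand, had 37385, 36925 and 44777 with ZC3H7A against 40332, 46951 and 51653, with overlapping groups (log2 change -0.22 ± 0.09, adjusted p = 0.0433). Its call was lost with DESeq2 and without Flag/HA-ZC3H7A replicate 1 or 2 or control replicate 2 or 3. It was also lost under quantile scaling, where 6 of the 7 were higher and 0 lower. All 7 were lower with ZC3H7A than with ZC3H7B in the direct test, by log2 changes between -0.21 and -0.51. Among all genes 18.2% were lower in that test. Control replicate 1 was the lowest control for each of the 7, and without it 2 rose with ZC3H7A and 6 with ZC3H7B. Without Flag/HA-ZC3H7A replicate 1, 3 rose with ZC3H7A. In 1 fit of all 15 libraries 0 passed with ZC3H7A and 3 with ZC3H7B.

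In the overexpressing lines the nuclear-encoded members and these 7 subunits differed in the direction of their summed share of reads. The nuclear members took 0.391% to 0.406% of reads with ZC3H7A and 0.405% to 0.421% with ZC3H7B, against 0.427% to 0.432% in the Flag/HA control, and neither line overlapped with the control. The mitochondrially encoded subunits took 0.747% to 0.804% with ZC3H7A and 0.875% to 1.09% with ZC3H7B, against 0.602% to 0.739% in the control, again without overlap. As summed normalized counts, however, ZC3H7A and the control overlapped. Flag/HA-ZC3H7A replicate 2 had 257885, below control replicates 2 (258326) and 3 (262500). In ZC3H7A/B-DD libraries the mitochondrially encoded subunits took 0.193% to 0.349% of reads, against 0.316% to 0.500% in Parental. The means of both the nuclear members (0.433% against 0.482%) and these subunits (0.274% against 0.422%) were thus lower there, with overlapping libraries. MT-ND6 alone of the 7 passed, 14.3% of the list against 24.5% of all genes. It had 3634, 1293 and 2875 normalized counts against 4759, 5042 and 4358 (log2 change -0.98 ± 0.31, adjusted p = 0.0467). None of the 7 was called without ZC3H7A/B-DD replicate 3, Parental replicate 1 or Parental replicate 2, and 4 were lower without ZC3H7A/B-DD replicate 1, 3 without Parental replicate 3, 4 in 1 fit of all 15 libraries and 6 with sample weights. No test is given for these sums over chosen genes, and an exact permutation test of 3 against 3 libraries has a smallest p of 0.10.

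**Figure D4:**
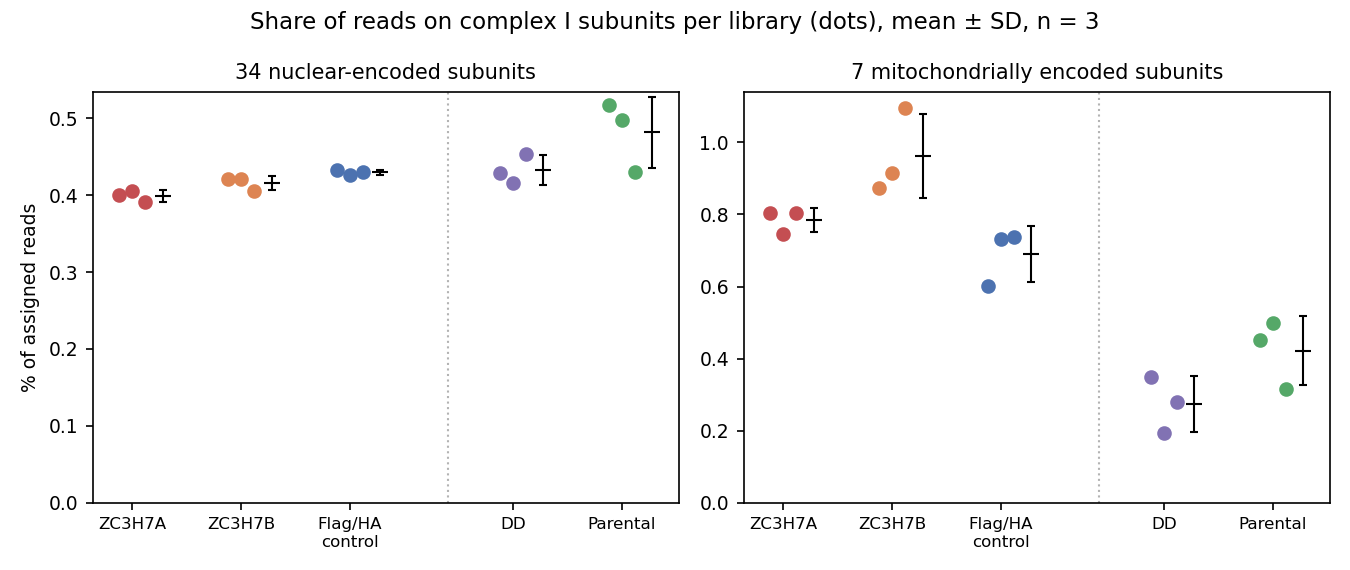
Share of assigned reads (%) on the 34 nuclear-encoded members (left panel) and the 7 mitochondrially encoded subunits (right panel), with 1 dot per library and the mean ± SD of 3 libraries, in the order Flag/HA-ZC3H7A, Flag/HA-ZC3H7B, Flag/HA control, then ZC3H7A/B-DD (DD) and Parental. In both overexpressing lines the nuclear share lies below the control's 0.427% to 0.432% and the mitochondrial share above its 0.602% to 0.739%.

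Assembly factors build complex I without staying in it. Of 20, 5 fell and 3 rose with ZC3H7A, 4 fell and 5 rose with ZC3H7B, and 7 fell and 1 rose in ZC3H7A/B-DD libraries. These are 40%, 45% and 40% of the list, against 57.5%, 54.3% and 24.5% of all genes. Without Parental replicate 2 the count of 7 was 2. ECSIT, which works with ACAD9 and TMEM126B on the membrane arm, had 932, 884 and 900 normalized counts with ZC3H7A and 984, 995 and 925 with ZC3H7B, against 437, 388 and 378 in the control, log2 changes of 1.18 ± 0.07 and 1.27 ± 0.07. In ZC3H7A/B-DD libraries ECSIT had 1427, 1654 and 1490 against 2206, 2292 and 2215 in Parental, a log2 change of -0.56 ± 0.09 (adjusted p = 0.00224). ECSIT was thus above its control in both overexpressing lines and below Parental in the third comparison. TMEM70, which also serves ATP synthase assembly, had the opposite signs, with log2 changes of -0.61 with ZC3H7A, -0.27 with ZC3H7B and 0.42 in ZC3H7A/B-DD libraries, all past the threshold. TMEM126B fell with ZC3H7A (log2 change -0.53), NUBPL, which delivers iron-sulfur clusters, fell with ZC3H7B (-0.64), and COA1 fell in ZC3H7A/B-DD libraries (-0.52). ATP5SL, a factor for the distal membrane arm, rose with ZC3H7A (0.45) and ZC3H7B (0.65).

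Nuclear-encoded subunits of complexes II to V were also called lower more often than higher: of 42, 19 fell and 5 rose with ZC3H7A, 18 fell and 6 rose with ZC3H7B, and 12 fell and 0 rose in ZC3H7A/B-DD libraries. In that last comparison limma had 2 higher at an unadjusted p under 0.05, and edgeR and DESeq2 called 0 higher. The shares called in either direction were 57.1%, 57.1% and 28.6%, close to the 57.5%, 54.3% and 24.5% of all genes. The shares called lower were 45.2%, 42.9% and 28.6%, above the 28.2%, 25.4% and 13.5% of all genes. The shares called higher were 11.9%, 14.3% and 0%, below the 29.2%, 28.9% and 11% of all genes. With ZC3H7B 12 were lower and 9 higher under quantile scaling. In ZC3H7A/B-DD libraries the 12 were 7 without ZC3H7A/B-DD replicate 3, Parental replicate 1 or Parental replicate 2. Their medians were -0.11, -0.09 and -0.14, beside -0.08, -0.08 and -0.17 for the complex I members. SDHB, the iron-sulfur subunit of complex II, fell in all 3 comparisons, with log2 changes of -0.78, -0.42 and -1.19. In ZC3H7A/B-DD libraries it had 4134, 3995 and 3766 normalized counts against 9372, 9311 and 8492 in Parental. ATPIF1, the inhibitor of ATP synthase, fell with ZC3H7A (-0.93), COX7A2 of complex IV fell with ZC3H7B (-0.50), and ATP5G3, which encodes the c subunit of ATP synthase, fell in ZC3H7A/B-DD libraries (-1.23). CYC1 (0.65) and COX6B1 (0.53) rose with ZC3H7A, and UQCR11 (0.58) and C14orf2 (0.42) rose with ZC3H7B. Among 11 regulators of respiratory genes 9 passed with ZC3H7A (81.8%), 7 with ZC3H7B (63.6%) and 4 in ZC3H7A/B-DD libraries (36.4%). The coactivator PPARGC1B rose with ZC3H7A (0.95) and ZC3H7B (0.84) and YY1 rose with both (0.45 and 0.62). TFB2M, a mitochondrial transcription factor, fell with ZC3H7A (-0.44) and ZC3H7B (-0.20) and rose in ZC3H7A/B-DD libraries (0.49). PPARGC1A fell with ZC3H7A (-0.43) and GABPA with ZC3H7B (-0.44), and PPRC1 (-0.75) and TFB1M (-0.59) fell in ZC3H7A/B-DD libraries.

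Across members, AT3 was weakly related to the log2 change when all 34 were taken, with Pearson's r of -0.16 for ZC3H7A, -0.27 for ZC3H7B and 0.20 for ZC3H7A/B-DD. These values are across genes of the same libraries, which are not independent replicates, and members also differ in length and level. Without the 6 overlapped genes, a choice made after the data were seen, r was -0.23, -0.58 and 0.40 over 28 members. With ZC3H7B NDUFB7 (8.82%) and NDUFA3 (16.9%), which have the lowest AT3, rose. NDUFS7 (20%) and the overlapped gene NDUFA13 (22.1%) were also called higher, though the libraries of both overlapped with the control. NDUFS8 (18.2%), NDUFB10 (22.8%) and NDUFV1 (27.6%) fell. At the other end NDUFB5 (60.6%), NDUFS1 (61.2%) and NDUFA5 (63.5%) fell, whereas the overlapped gene NDUFV2 (64.5%) rose the most. NDUFB3, at 64.9% the highest, did not pass with ZC3H7B (log2 change -0.13 ± 0.06). With ZC3H7A the largest falls were at middle values, in NDUFS6 (36.8%) and NDUFA10 (40.9%). Those next in size were above the median AT3 of 41.5%, in NDUFB5 (60.6%), NDUFV3 (50.2%) and NDUFA12 (55.6%). Split at the median AT3, 8 of 17 members at or below it and 7 of 17 above it fell with ZC3H7A, and 6 of 17 and 7 of 17 fell with ZC3H7B. Coding length, on a log2 scale of codons, gave r of -0.35 for ZC3H7A, -0.15 for ZC3H7B and -0.06 for ZC3H7A/B-DD over the 34 members, and of -0.54, -0.40 and 0.05 over the 28.

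**Figure D5:**
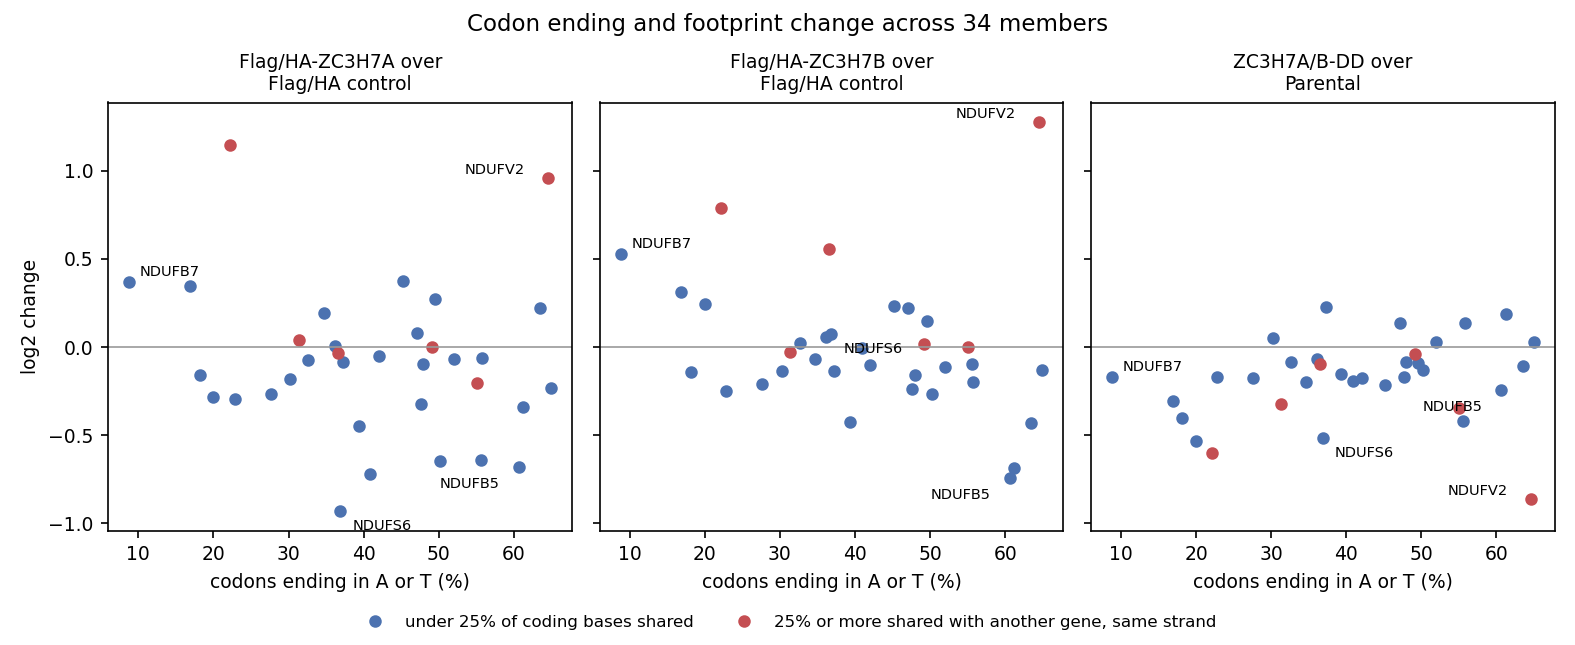
Log2 change of each member against the percentage of its codons that end in A or T, in Flag/HA-ZC3H7A and Flag/HA-ZC3H7B cells over the Flag/HA control and in ZC3H7A/B-DD cells over Parental. Red points are the 6 overlapped genes; NDUFB7 at 8.82% is higher in both overexpressing lines and NDUFB5 at 60.6% is lower in both.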

How the data were processed

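Ribosome footprints were measured in 15 libraries of HEK293 cells. The deposited table holds a normalized signal, read counts divided by a size factor of each library by the authors, for 55773 gene names. Per the submitters' processing notes, the builds hg19 and hg38 and the tools HTSeq, STAR, Bowtie, DESeq2 and cutadapt were involved. Their versions and roles, the annotation and the strand setting: not given in the sources used here. Dividing each library by its smallest step recovered whole reads, within 0.001 reads, for 100% of values. On those reads edgeR called 9058 genes for ZC3H7A, 8497 for ZC3H7B, 5850 between the lines and 4132 for ZC3H7A/B-DD, and DESeq2 called 8527, 7934, 5360 and 4152.

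Differences were tested by limma 3.58.1 in R 4.3.3 (linear model, moderated with a mean-dependent trend) after adding 1 to each value and taking log2. A gene entered when 3 or more of the fitted libraries had a value of at least 10. P-values were adjusted by Benjamini-Hochberg over every gene tested, and calls were made at 0.05. One model held the 9 Flag/HA libraries, with all 3 contrasts among them, and a separate model held the 6 ZC3H7A/B-DD and Parental libraries. All 34 members passed the filter in both fits. Replicate numbers were not used to pair the samples in these models, since no pairing is stated. Alternatives were pseudocounts of 0.5 and 5, no filter or one at 50, TMM and quantile scaling, edgeR 4.0.16 (quasi-likelihood) and DESeq2 1.42.0 on the recovered reads, sample weights, 1 fit of all 15 libraries, a replicate block and each library left out. The lists without the 6 overlapped genes were added after the data were seen. The limma step was tested on simulated counts with known changes. It recovered 82.1% of 1.5-fold changes for ZC3H7A, 97% for ZC3H7B and 88.1% between the lines, but 37.3% for ZC3H7A/B-DD. For 2-fold changes the values were 97%, 98.5%, 97% and 82.1%. Of its calls on the simulated counts, 5.58%, 6.19%, 7.77% and 8.18% were false. The simulation changed far fewer genes than were called in these data, all with a mean value above 50. No simulated library was made to stand apart as Parental replicate 3 does. The recovered and false shares therefore need not hold for these data. A member that did not pass in ZC3H7A/B-DD may still have changed.

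Coding sequences, gene positions and overlaps come from GENCODE release 29, whose build may not be the one used for counting. The longest coding sequence of each gene was used. Full values are given for the core subunits NDUFS1, NDUFS3, NDUFS7, NDUFS8, NDUFV1 and NDUFV2, and, in each comparison with a control, for up to 4 of the largest falls and up to 4 of the largest rises among called members whose groups did not overlap. From the other lists the 2 largest called changes each way are named. Further members are described so that every member is accounted for. Members, lists and tests were chosen with earlier results of these data known.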

Additional observations from a re-analysis of the deposited data

Results flagged for a closer look

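The direct test between the overexpressing lines marked 12 members as different in their response, with the log2 change of ZC3H7A over ZC3H7B cells given here. It was -1.01 for NDUFS6, -0.71 for NDUFA10, -0.54 for NDUFA12, -0.53 for NDUFS7 and -0.38 for NDUFV3. It was -0.59 for NDUFA11 and -0.21 for NDUFA9, which are overlapped by another gene, and -0.16 for NDUFB7 and -0.14 for NDUFB1. It was 0.65 for NDUFA5, 0.34 for NDUFS1 and 0.26 for NDUFC1. NDUFS7 and NDUFA5 passed in opposite directions against the shared control: NDUFS7 was lower with ZC3H7A and higher with ZC3H7B, and NDUFA5 was higher with ZC3H7A and lower with ZC3H7B. NDUFS1 was lower in both lines, by more with ZC3H7B. NDUFA9, NDUFB7 and NDUFB1 were called different in 7, 8 and 10 of 17 alternatives, and each call was lost when single libraries were left out. The groups overlapped for NDUFA9 and NDUFB1. The other 9 were called in all 17. The call on NDUFS7 with ZC3H7B was lost when single libraries were left out, and 50.7% of its coding bases are overlapped on the other strand.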

How the results depend on the processing

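All called members kept their sign in every alternative, and 19 of 23 calls with ZC3H7A, 11 of 22 with ZC3H7B, 9 of 12 between the overexpressing lines and 1 of 6 in ZC3H7A/B-DD were made in every alternative. The cause was not tested for the values that follow. With ZC3H7B the number of lower members, 13, was 7 under quantile scaling and 7 in 1 fit of all 15 libraries. Its median of -0.08 was -0.00127 under quantile scaling, -0.11 with DESeq2 and -0.12 without the 6 overlapped genes. NDUFA10 with ZC3H7B, at -0.0066 and not called, was 0.11 under quantile scaling (adjusted p = 0.00689). Between the overexpressing lines 6 members in place of 3 were higher with TMM scaling and with edgeR. For ZC3H7A/B-DD sample weights gave 17 lower and 2 higher, and 1 fit of all 15 libraries 11 lower and 1 higher. With 1 library left out, members with ZC3H7A were 8 higher and 13 to 16 lower, with medians between -0.125 and -0.047. With ZC3H7B they were 6 to 9 higher and 9 to 16 lower, with medians between -0.0915 and -0.0516. Between the lines they were 3 to 6 higher and 6 to 10 lower, with medians between -0.0673 and -0.0067. The higher members were 5 without Flag/HA-ZC3H7A replicate 3 and 6 without Flag/HA-ZC3H7B replicate 2. For ZC3H7A/B-DD they were 0 to 1 higher and 1 to 10 lower, with medians between -0.24 and -0.11. Same-numbered samples correlated between -0.057 and 0.092 in the Flag/HA groups and between -0.133 and 0.033 in the other set. No clear pairing by number was thus seen, but whether same-numbered samples shared a preparation was not tested. The replicate block gave 6 higher members between the lines and 3 lower members in ZC3H7A/B-DD, and it left the other counts of members within 1.5 times. With the mean coding length in place of the longest, the median density was 7580 in the Flag/HA control and 9471 in Parental. Without the 6 overlapped genes, r of AT3 and log2 change was -0.23 for ZC3H7A, -0.58 for ZC3H7B, 0.25 between the lines and 0.40 for ZC3H7A/B-DD. Depth limits 2 overlapped members: the fewest reads in a library were 9 for NDUFV2 and 13 for NDUFA13.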
